A study of Mus musculus with 95 samples.

Results

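The macrophage receptors Marco, Mrc1, Msr1, Cd14 and Tlr2, through which these cells recognise and take up microbes, were followed across mouse lungs exposed to Pneumocystis murina, a fungus that lives in the mouse lung. They were chosen by name, and a probe set was used where the array annotation pairs it with only 1 of the 5 genes. Of these 5 genes, 4 were measured among the 8251 genes on the array: Marco, Mrc1 and Cd14 by 1 probe set each and Msr1 by 2 probe sets. No probe set of Tlr2 was found in the annotation used here, so Tlr2 was not analysed here.

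RNA of lung homogenates from 95 mice was hybridised to 95 single-colour arrays, 60 from mice housed with a heavily infected seeder mouse and 35 from mice without one. All mice were labelled female and 8 weeks old, and were either C57BL/6 or CD40L-KO, which lack CD40 ligand, the T cell protein that activates B cells, macrophages and dendritic cells through CD40. Experiment 1 held both strains at day 32, with 3 exposed and 2 unexposed C57BL/6 mice and 3 exposed and 3 unexposed CD40L-KO mice. Experiment 2 held C57BL/6 mice at days 34 and 41, with 10 exposed and 5 unexposed mice at each day. Experiment 3 held C57BL/6 mice at day 7 (8 exposed, 4 unexposed), day 14 (8 and 6) and day 21 (6 and 5). Experiment 4 held 4 CD40L-KO mice exposed for 35 days, and the 5 unexposed CD40L-KO mice labelled day 14 were taken as its controls. For exposed CD40L-KO mice of days 39 (2 mice) and 75 (3 mice) and exposed C57BL/6 mice of day 75 (3 mice) no experiment and no unexposed mice of their own are given. In experiments 1 to 3 exposed and unexposed mice lived in separate cages, so that cage and exposure cannot be told apart.

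Cd14 binds lipopolysaccharide and other microbial lipids and hands them to Toll-like receptors, of which Tlr2 senses lipoproteins and fungal wall components. Msr1 and Marco are class A scavenger receptors, which bind polyanionic ligands, oxidised lipoproteins and microbes, and Marco is typical of resting mouse alveolar macrophages. Mrc1, the mannose receptor, is a C-type lectin that binds mannose-rich glycans such as those on the surface of Pneumocystis, and lung macrophages carry it.

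Levels are log2(intensity + 8), changes are differences of group means on that scale, on which a dim gene's change appears too small, and a level of 3 would be an intensity of 0. A change was called where limma's adjusted p over the 8251 genes was under 0.05. Cd14 was bright on all arrays, with intensities from 256 to 991, and Mrc1 lay between 30.9 and 129. Marco, from 3.36 to 96.1, and Msr1, from 1.68 to 53.6 by its brighter probe set, fell in some mice below the 20th percentile of all values, 6.76. The number of mice limits the precision, and the lowest and highest array medians were 35.5 and 46.3.

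Facts of the arrays that bear on these genes are given first. Lung epithelial transcripts were high on all arrays, Sftpc between 12.4 and 14.6 and Scgb1a1 between 12.2 and 14.3. A score of 9 squamous epithelium genes lay above 5.5 on 16 arrays, among them 4 of the 5 unexposed mice of day 34, 3 of the 10 exposed mice of day 34, and, for CD40L-KO at day 32, 2 of 3 unexposed and 1 of 3 exposed mice. On the 17 arrays of 5 groups (CD40L-KO at days 14, 35, 39 and 75 and C57BL/6 at day 75) the Y-linked Eif2s3y exceeded Xist, which goes against the label female. Cd40lg, the gene lacking in CD40L-KO mice, was at 3.05 to 3.75 in both strains and did not check the genotype.

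Across the 19 groups the receptors fell into different orders. Cd14 was highest in C57BL/6 mice exposed for 32 days (9.70 ± 0.35, SD, n = 3), then in those exposed for 34 days (9.10 ± 0.35, n = 10), and lowest in CD40L-KO mice exposed for 32 days (8.28 ± 0.23, n = 3). Msr1 was also highest in C57BL/6 mice exposed for 32 days (5.51 ± 0.41, n = 3), and its next highest group was CD40L-KO at day 75 (4.78 ± 0.09, n = 3). Marco was highest in CD40L-KO mice exposed for 75 days (6.40 ± 0.20, n = 3) and 35 days (6.33 ± 0.35, n = 4), followed by unexposed C57BL/6 mice of day 32 (5.44 ± 0.16, n = 2). Mrc1 led in the same 2 groups, at 6.97 ± 0.12 (n = 3) and 6.72 ± 0.22 (n = 4), followed by C57BL/6 mice exposed for 34 days (6.51 ± 0.37, n = 10). Between neighbours in these orders, 18 pairs per gene, the ranges of the mice did not overlap only once for Marco, between its second and the third group, and once for Msr1, between its first and second group. For Mrc1 and Cd14 all 18 neighbouring pairs overlapped. The groups set apart were small, 4 and 2 mice for Marco and 3 and 3 for Msr1. By its dimmer probe set Msr1 had 0 such pairs. How often other genes have such pairs was not counted.

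**Figure D1:**
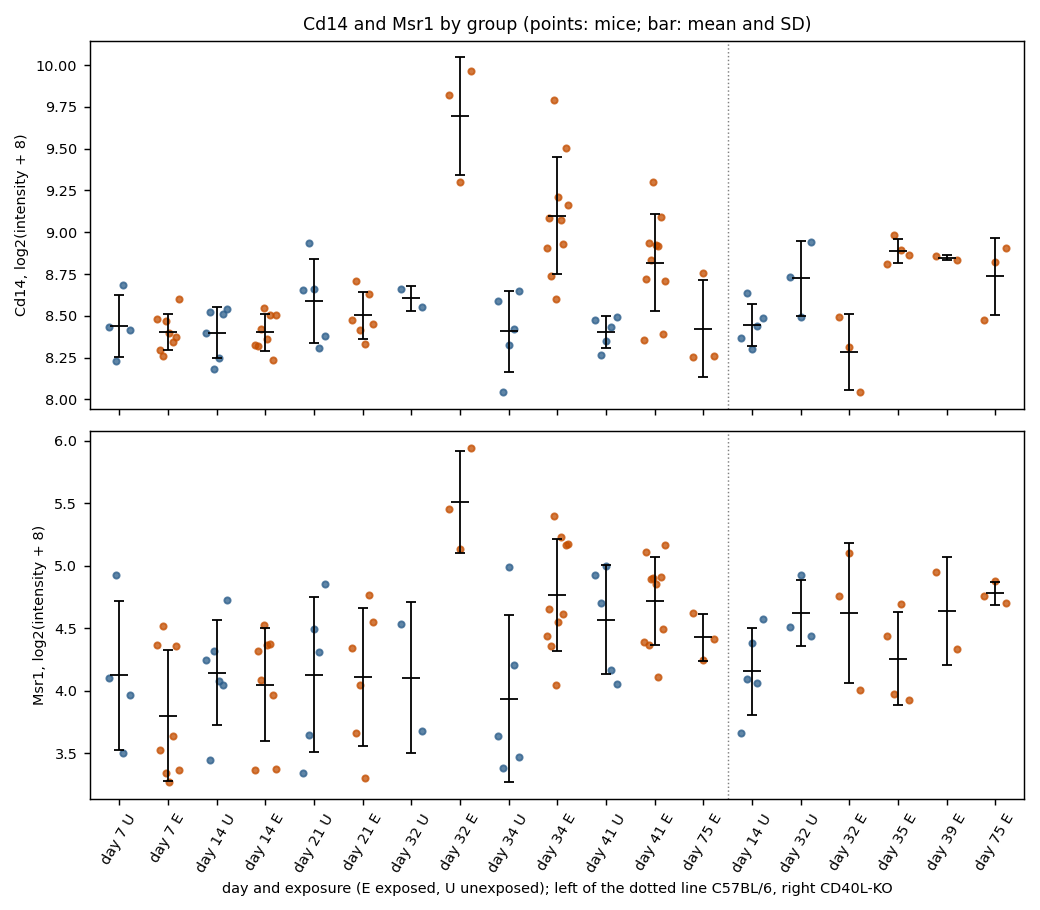
Level of Cd14 (upper panel) and Msr1 (lower panel, brighter probe set), log2(intensity + 8), in the 19 groups; points are mice, black bars are mean and SD, orange is exposed and blue unexposed. The C57BL/6 mice exposed for 32 days have the highest group means for both genes, 9.70 and 5.51, while single mice exposed for 34 days lie within their range.

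**Figure D2:**
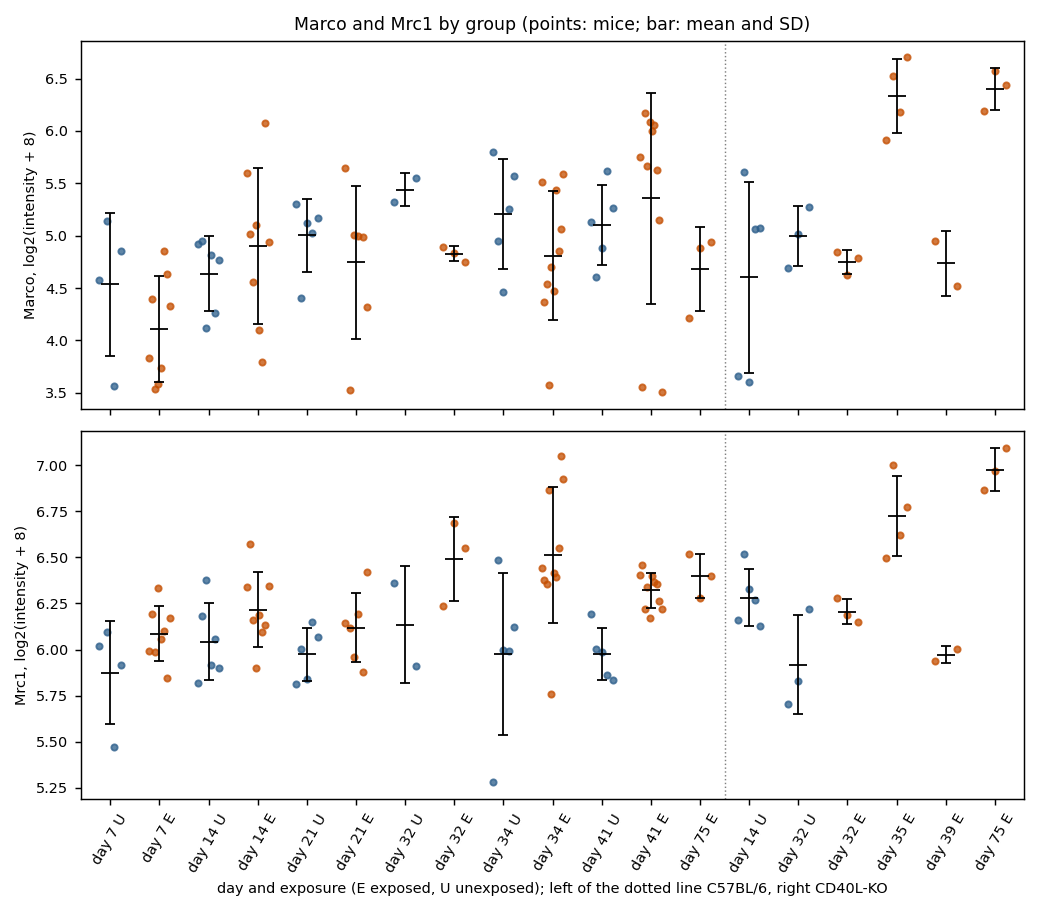
Level of Marco (upper panel) and Mrc1 (lower panel), log2(intensity + 8), in the same 19 groups, drawn in the same way. CD40L-KO mice exposed for 35 and 75 days have the 2 highest group means for both genes, although single C57BL/6 mice reach as high as some of them, and 2 of the 10 C57BL/6 mice exposed for 41 days lie far below the other 8 for Marco.

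The day 32 comparison asked what exposure did in each strain. In C57BL/6 mice Cd14 rose. Its level was 9.82, 9.30 and 9.96 in the exposed mice and 8.66 and 8.55 in the unexposed mice. All 3 exposed mice lay above both unexposed mice, and the change was 1.09 (SE 0.22, adjusted p 0.0426). In this comparison 1.35% of all genes were called higher and 0.303% lower, and Cd14 was the only 1 of the 4 receptors called. In homogenised lung, more cells of a type and more RNA per cell cannot be told apart. The call was lost when any 1 of 4 of these 5 mice was left out, with changes between 0.96 and 1.14 in those 4 fits and adjusted p from 0.14 to 0.207.

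Msr1 was 5.46, 5.13 and 5.95 in the exposed C57BL/6 mice of day 32 and 4.54 and 3.68 in the unexposed mice. The groups did not overlap, but the change of 1.40 (SE 0.36) missed the threshold (adjusted p 0.0847), which it passed without exposed replicate 2 (1.59, adjusted p 0.043). Its second, dimmer probe set read 5.03, 3.81 and 4.86 against 4.43 and 4.31, a change of 0.20 (SE 0.32, adjusted p 0.823), so that the probe sets disagreed and the exposed mice overlapped the unexposed ones. Marco went the other way, with 4.89, 4.84 and 4.75 in exposed and 5.33 and 5.55 in unexposed mice. The groups were apart, and the change of -0.61 (SE 0.18) was not called (adjusted p 0.116). Mrc1 was 6.24, 6.68 and 6.55 against 6.36 and 5.91, which overlap, with a change of 0.36 (SE 0.21, adjusted p 0.417).

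In CD40L-KO mice at day 32, limma called 0 of the 4 receptors, where 0.0606% of genes were called higher and 0.0121% lower, and 0 of the 4 had an unadjusted p under 0.05. Cd14 was 8.49, 8.32 and 8.04 in the exposed mice and 8.73, 8.50 and 8.94 in the unexposed mice. The exposed mice lay below the unexposed ones, the highest and lowest of them nearly touching, and the change was -0.44 (SE 0.20, adjusted p 0.367). Msr1, at 4.76, 5.10 and 4.01 against 4.51, 4.92 and 4.44, overlapped fully. Marco changed by -0.24 (SE 0.16, adjusted p 0.527) and Mrc1 by 0.29 (SE 0.19, adjusted p 0.521), each with overlapping groups. RNA quality differed too: log2 of the 3' over the 5' Gapdh control probe set, which rises as RNA is degraded, lay apart. It was 0.22 to 0.45 in unexposed and -0.12 to 0.00 in exposed mice. Without the arrays over a squamous score of 5.5 the changes were -0.54 for Cd14, -0.54 for Marco, 0.49 for Msr1 and 0.01 for Mrc1. This leaves out 2 of 3 unexposed and 1 of 3 exposed mice.

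The difference between the strains in the effect of exposure was tested directly. For Cd14 it was -1.53 (SE 0.30, 95% interval -2.20 to -0.86), with an unadjusted p of 0.000446 that missed the threshold over all genes (adjusted p 0.097). It passed without exposed C57BL/6 replicate 2 (-1.73, adjusted p 0.0135), without dim genes (adjusted p 0.0473) and in a single fit of all 95 arrays (adjusted p 9.35e-05). Under the other alternatives it stayed uncalled. It was -1.63 without the arrays over a squamous score of 5.5, which leaves out 2 of 3 unexposed and 1 of 3 exposed CD40L-KO mice. In the main fit the difference was -1.41 (SE 0.49, adjusted p 0.249) for Msr1, 0.37 (SE 0.24, adjusted p 0.513) for Marco and -0.07 (SE 0.28, adjusted p 0.935) for Mrc1. Limma thus called 0 of the 4 receptors, 2 had an unadjusted p under 0.05, and 0.0485% of genes were called higher and 0.121% lower. Among exposed mice alone, Cd14 was lower in CD40L-KO than in C57BL/6 mice by -1.41 (SE 0.20, adjusted p 0.00791), all 3 below all 3, and was the only receptor called where 1.85% of genes were lower and 0.909% higher. Msr1 differed by -0.89 (SE 0.33, adjusted p 0.167) in the same mice, again without overlap. Without the arrays whose squamous score exceeded 5.5, the Cd14 difference between exposed strains was no longer called. Among unexposed mice 0 of 4 receptors were called by limma, 1 (Marco, -0.44, SE 0.18, adjusted p 0.551) had an unadjusted p under 0.05, and 0.0121% of genes were higher and 0.0364% lower.

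Experiment 2 followed exposed C57BL/6 mice at days 34 and 41. At day 34, 3 of the 4 receptors rose, Cd14, Msr1 and Mrc1, where 5.26% of genes were called higher and 2.96% lower. Cd14 had a lowest, median and highest level of 8.60, 9.08 and 9.79 in the 10 exposed mice, and was 8.59, 8.04, 8.33, 8.42 and 8.65 in the 5 unexposed mice. Only the lowest exposed mouse fell within the unexposed range, and the change was 0.69 (SE 0.15, adjusted p 0.00411), with 10 of 10 exposed mice above the unexposed mean.

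Msr1 at day 34 ran from 4.05 through a median of 4.64 to 5.40 in exposed mice, against 3.64, 3.39, 4.99, 4.20 and 3.47 in unexposed mice. A single unexposed mouse lay above 6 of the 10 exposed mice, so the groups overlapped, and the change was 0.83 (SE 0.24, adjusted p 0.028). The second Msr1 probe set changed by 0.06 (SE 0.18, adjusted p 0.896), and the Msr1 call was lost with the mean of both probe sets (0.44, adjusted p 0.101) and with an offset of 32 in place of 8 (0.37, adjusted p 0.0541). Mrc1 ran from 5.76 through 6.43 to 7.05 in exposed mice, against 5.28, 6.49, 6.00, 5.99 and 6.12, with 9 of 10 exposed mice above the unexposed mean and a change of 0.54 (SE 0.16, adjusted p 0.028). Leaving out 1 mouse ended the Msr1 call for exposed replicate 4 and unexposed replicates 1, 2 and 5 (adjusted p 0.0526 to 0.103), and the Mrc1 call for exposed replicate 4 and unexposed replicates 1 and 4 (adjusted p 0.052 to 0.143). Marco ran from 3.58 through 4.78 to 5.59, against 5.79, 4.95, 4.46, 5.25 and 5.57, and its change of -0.40 (SE 0.38, adjusted p 0.554) was within the spread of the mice.

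Several unexposed mice of day 34 stood apart. Besides the squamous transcripts, the Gapdh control ratio, log2 of its 3' over its 5' probe set, which rises as RNA is degraded, lay between 0.27 and 2.13 in them, against -0.16 to 1.59 in the exposed mice. Without the arrays over a squamous score of 5.5, which leaves 1 unexposed mouse, 0 of 4 receptors were called, with changes of 0.49 for Cd14, 0.41 for Mrc1 and 1.39 for Msr1. In a comparison added after the data were seen, with the unexposed mice of days 34 and 41 as 1 group and those arrays left out, Cd14 (0.69, adjusted p 0.0118) and Mrc1 (0.53, adjusted p 0.0288) were called and Msr1 (0.47, adjusted p 0.30) was not. With the Gapdh ratio as a covariate 1 of the 3 calls was kept. The part of squamous tissue and of RNA quality in these changes was not tested further.

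At day 41 limma called 0 of the 4 receptors, 2 had an unadjusted p under 0.05, and 0.388% of genes were called higher and 0% lower. Cd14 ran from 8.36 through 8.88 to 9.30 in exposed mice, against 8.47, 8.27, 8.35, 8.43 and 8.50, with 8 of 10 exposed mice above the unexposed mean. Its change was 0.41 (SE 0.15, adjusted p 0.41). Mrc1 ran from 6.17 through 6.35 to 6.46, against 6.19, 6.00, 5.99, 5.86 and 5.83. All 10 exposed mice lay above the unexposed mean and 1 of them within the unexposed range, but the change of 0.34 (SE 0.16) missed the threshold (adjusted p 0.581). Msr1 changed by 0.15 (SE 0.24, adjusted p 0.968).

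Marco at day 41 was split among the exposed mice. It was 5.76, 3.55, 6.18, 5.67, 6.09, 6.00, 6.05, 5.63, 5.15 and 3.51, against 5.13, 4.60, 4.89, 5.61 and 5.26 in unexposed mice. Of the exposed mice, 2 lay near the bottom of the scale and 7 lay above all unexposed mice. The mean change of 0.26 (SE 0.38, adjusted p 0.962) averages over both sets. The change of the effect from day 34 to day 41 was called for 0 of the 4 receptors, 0 with an unadjusted p under 0.05, where 0.0485% of genes were higher and 0.0606% lower. It was -0.68 (SE 0.34, 95% interval -1.37 to 0.01) for Msr1, -0.28 (SE 0.22) for Cd14, -0.19 (SE 0.22) for Mrc1 and 0.66 (SE 0.54) for Marco.

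In the first 3 weeks no receptor was called. At days 7 and 21 limma called 0% of all genes, with 545 and 958 genes at an unadjusted p under 0.05, and at day 14 it called 0.218% higher and 0.0485% lower. None of the 4 receptors had an unadjusted p under 0.05 at any of these days. Cd14 ran from 8.24 to 8.71 in the 22 exposed mice and from 8.18 to 8.94 in the 15 unexposed mice of these days. Its change was -0.04 (SE 0.10, 95% interval -0.24 to 0.16) at day 7, 0.00 (SE 0.09, -0.17 to 0.18) at day 14 and -0.09 (SE 0.10, -0.28 to 0.11) at day 21. These intervals lie below the 0.69 (95% interval 0.38 to 1.01) measured at day 34 in experiment 2. The difference between the experiments was not tested. Mrc1 ran from 5.85 to 6.57 in exposed and from 5.47 to 6.38 in unexposed mice, and changed by 0.21 (SE 0.12), 0.17 (SE 0.11) and 0.14 (SE 0.12) at the 3 days, with intervals that all included 0. Marco ran from 3.53 to 6.07 in exposed and from 3.57 to 5.30 in unexposed mice, and Msr1 from 3.27 to 4.77 and from 3.34 to 4.93, so that both were dim and scattered. They changed by -0.42 to 0.26 and by -0.33 to -0.02 over the 3 days, with SE between 0.27 and 0.35. The change of the effect from day 7 to day 21 was called for 0 of 4 receptors, where 0% of genes were called and 474 had an unadjusted p under 0.05, and none of the 4 was among these.

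**Figure D3:**
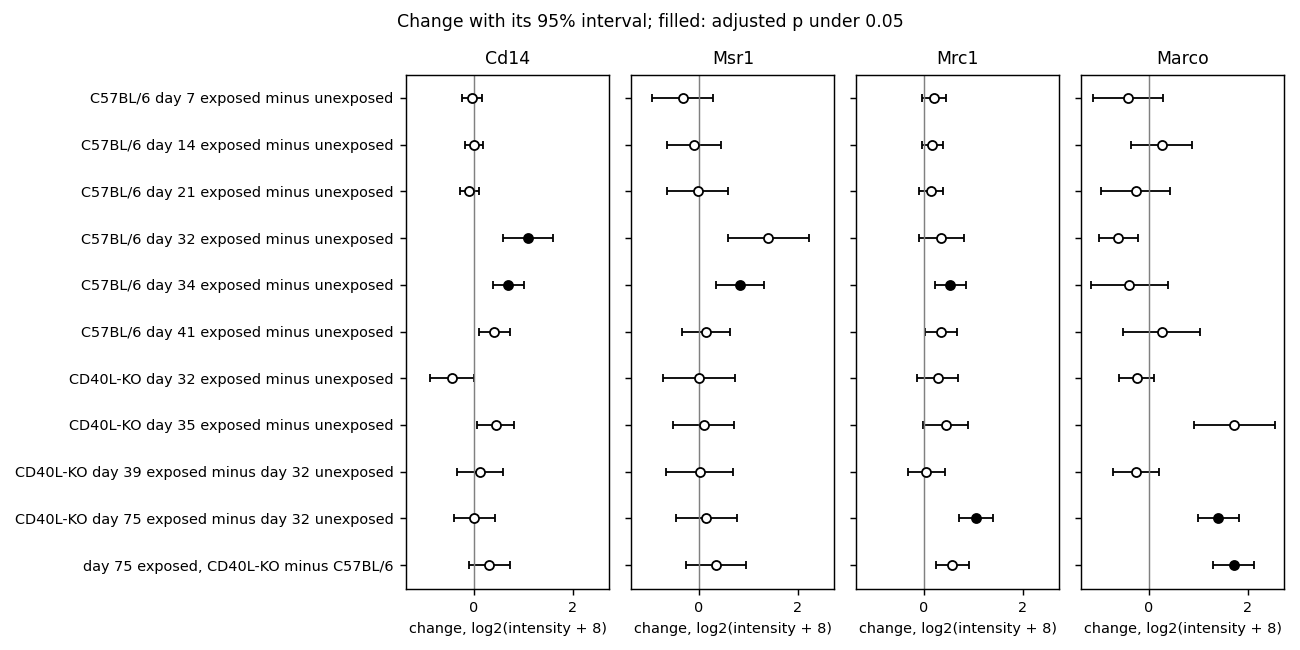
Change of each receptor, log2(intensity + 8), in 11 comparisons, with its 95% interval; filled points have an adjusted p under 0.05. Cd14 lies near 0 at days 7, 14 and 21 and is called at days 32 and 34 in C57BL/6 mice, while Marco is called in both day 75 comparisons shown.

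The group means of Marco and Mrc1 were highest in CD40L-KO mice exposed for 35 and 75 days, and those of day 39 were not among them. The unexposed mice of experiment 4 are labelled day 14, so day and exposure cannot be told apart in it. At day 35 of experiment 4 Marco was 5.91, 6.53, 6.18 and 6.70 in the exposed mice and 3.66, 5.61, 3.60, 5.07 and 5.07 in the unexposed mice. All 4 exposed mice lay above all 5 unexposed ones, 2 of which were near the bottom of the scale, and the change was 1.73 (SE 0.40, 95% interval 0.91 to 2.55, unadjusted p 0.000212). It did not pass over all genes (adjusted p 0.499), and limma called 0% of genes in this comparison, with 363 at an unadjusted p under 0.05. A single fit of all 95 arrays gave an adjusted p of 0.0308 for the same change, and a fit on these 2 groups alone gave 0.341. Cd14, at 8.81, 8.98, 8.89 and 8.86, also lay above all unexposed mice, which ran from 8.30 to 8.63, with a change of 0.44 (SE 0.18, adjusted p 0.999). Mrc1, at 6.50, 7.00, 6.62 and 6.77 against 6.13 to 6.52, changed by 0.44 (SE 0.22, adjusted p 0.999), and Msr1 by 0.10 (SE 0.30).

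The effect of exposure in CD40L-KO mice at day 35 was set against that in C57BL/6 mice at day 34, which lie in different experiments. The CD40L-KO effect was taken against unexposed mice labelled day 14, so it holds day as well as exposure. For Marco the difference was 2.12 (SE 0.51, 95% interval 1.07 to 3.18, adjusted p 0.0565). Limma called 0 of the 4 receptors, 1 had an unadjusted p under 0.05, and 0.109% of genes were higher and 0.473% lower. Marco passed the threshold with an offset of 32 (adjusted p 0.0297), in the fit of all arrays (adjusted p 0.01), and when exposed C57BL/6 replicate 7 or 10, unexposed C57BL/6 replicate 3 or unexposed CD40L-KO replicate 2 was left out (adjusted p 0.0378 to 0.0458). The differences were -0.73 (SE 0.38) for Msr1, -0.25 (SE 0.23) for Cd14 and -0.09 (SE 0.28) for Mrc1, with intervals that included 0. Under the other alternatives Marco stayed uncalled. Its difference was 2.31 without the arrays over a squamous score of 5.5, among them 4 of 5 unexposed C57BL/6 mice. Eif2s3y exceeded Xist in all of these CD40L-KO mice and in 0 of these C57BL/6 mice, and its part was not tested.

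At day 75 both strains had been exposed, and Marco was higher in CD40L-KO mice. It was 6.19, 6.57 and 6.44 in CD40L-KO mice and 4.22, 4.88 and 4.94 in C57BL/6 mice. All 3 lay above all 3, and the difference was 1.72 (SE 0.19, adjusted p 0.000189), the second highest of all 8251 genes. Only 0.0848% of genes were called higher and 0.242% lower, and Marco was the only 1 of 4 receptors called. Ctsk, cathepsin K, a protease abundant in mouse alveolar macrophages, was the only 1 of 11 measured alveolar macrophage markers called (1.31, SE 0.20, adjusted p 0.00453). Mrc1 was 6.86, 6.97 and 7.09 against 6.52, 6.28 and 6.40, without overlap, but its difference of 0.58 (SE 0.16) was not called (adjusted p 0.323). Msr1 differed by 0.35 (SE 0.29) and Cd14 by 0.31 (SE 0.20), both with an adjusted p of 0.9999. The Marco call did not hold in a single fit of all 95 arrays (adjusted p 0.194).

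Exposed CD40L-KO mice of day 75 were also set against those of day 39, whose experiments are not given. Marco was 4.95 and 4.52 and Mrc1 5.94 and 6.00 at day 39, below all 3 mice of day 75 for both genes. Both receptors were higher at day 75, Marco by 1.66 (SE 0.22, adjusted p 0.00526) and Mrc1 by 1.00 (SE 0.18, adjusted p 0.00959), which made 2 of 4 receptors where 2.3% of genes were higher and 1.02% lower. Ctsk was again the only alveolar macrophage marker called (1.32, SE 0.23, adjusted p 0.00959). The Gapdh ratio was 0.40 and 0.50 at day 39 and 0.14 to 0.27 at day 75. With it as a covariate the changes were 1.66 for Marco and 1.16 for Mrc1, and neither was called (adjusted p 0.0872 for each). The Mrc1 call was also lost without either mouse of day 39 (adjusted p 0.0828 and 0.067).

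Against unexposed CD40L-KO mice of day 32, the same day 75 mice again had more Marco (1.41, SE 0.20, adjusted p 0.00142) and Mrc1 (1.06, SE 0.16, adjusted p 0.00227), 2 of 4 receptors where 5.58% of genes were higher and 2.84% lower. These comparisons share the day 75 mice, for which no experiment is given. In the comparison with day 32, exposure, day and experiment cannot be told apart. The unexposed mice had 4.70, 5.02 and 5.27 for Marco and 5.70, 5.83 and 6.22 for Mrc1, all below the mice of day 75. In 2 of these 3 unexposed mice the squamous score was over 7, and skeletal muscle markers were also high (4.75, 7.26 and 8.13 against 4.42 to 4.63 at day 75). Without those 2 mice the changes were 1.13 for Marco and 0.75 for Mrc1 and neither was called (adjusted p 0.0818 and 0.111). The sign of Eif2s3y over Xist also differed between the 2 groups, and its part was not tested. Day 39 mice did not differ from the same unexposed mice by limma in any of the 4 receptors (0 with an unadjusted p under 0.05), where 0.0364% of genes were higher and 0.0242% lower. Marco changed by -0.26 (SE 0.22) and Mrc1 by 0.05 (SE 0.18).

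In C57BL/6 mice, exposed mice of day 75 had less Cd14 and Msr1 than those of day 32, 2 of 4 receptors where 8.93% of genes were lower and 8.94% higher. No experiment is given for the mice of day 75, so day and experiment cannot be told apart. Cd14 was 8.26, 8.76 and 8.26 at day 75, below all day 32 mice, a change of -1.27 (SE 0.20, adjusted p 0.000622). Msr1 was 4.62, 4.25 and 4.41, also below all day 32 mice, a change of -1.08 (SE 0.29, adjusted p 0.0164) that was not called without replicate 3 of day 32 or replicate 2 or 3 of day 75 (adjusted p 0.0537 to 0.0787). Its second probe set changed by -0.91 (SE 0.27, adjusted p 0.0318), here in the same direction. Marco (-0.14, SE 0.20) and Mrc1 (-0.09, SE 0.16) were not called. The groups also differed in RNA quality, with Gapdh ratios of 0.14 to 0.26 at day 75 and -0.10 to 0.04 at day 32, and with that ratio as a covariate Cd14 was still called and Msr1 was not (-0.65, adjusted p 0.315). Eif2s3y exceeded Xist in all 3 mice of day 75 and in 0 of 3 of day 32, and the part of this difference was not tested.

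The stretches upstream of Marco and Mrc1, the pair that stood highest in the same CD40L-KO groups, are shown to let the letters of both be compared. Each is the 250 bases before the annotated start, from RefSeq on GRCm38.p6, in the direction of the gene. Capitals mark matches to the core of PU.1 sites, GAGGAA, read on either strand, PU.1 being the factor that directs macrophage development, and to the NF-kB pattern of GGG, any 2 bases and TTTCC. The AP-1 pattern TGANTCA and the antioxidant response element TGACNNNGC were searched too, all on both strands, with no overlap of matches.
Marco (chr1:120505025-120505274, minus strand): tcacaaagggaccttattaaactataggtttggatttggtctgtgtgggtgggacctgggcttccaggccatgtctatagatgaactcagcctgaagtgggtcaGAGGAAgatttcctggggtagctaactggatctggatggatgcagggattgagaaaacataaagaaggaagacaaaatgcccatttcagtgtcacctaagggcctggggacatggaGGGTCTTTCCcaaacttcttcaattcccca
Mrc1 (chr2:14229164-14229413, plus strand): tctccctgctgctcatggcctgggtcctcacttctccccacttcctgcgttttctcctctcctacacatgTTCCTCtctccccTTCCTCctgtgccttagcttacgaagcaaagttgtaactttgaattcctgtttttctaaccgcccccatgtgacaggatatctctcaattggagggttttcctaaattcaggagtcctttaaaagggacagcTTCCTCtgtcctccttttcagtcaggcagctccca
Marco held 1 PU.1 core, starting 146 bases before the start, and 1 NF-kB pattern, starting 30 bases before it. Mrc1 held 3 PU.1 cores on the other strand and no match to the other patterns. Of 32851 promoters in the table, over the same 250 bases, 23.3% held a PU.1 core, 1.41% the NF-kB pattern, 6.75% the AP-1 pattern and 10.2% the antioxidant pattern. These are matches of letters and no measured sites.

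Over the 19 group means, Pearson's r between the receptors was 0.78 for Msr1 and Cd14, 0.64 for Marco and Mrc1, 0.45 for Mrc1 and Cd14, 0.43 for Mrc1 and Msr1, 0.23 for Marco and Cd14 and 0.20 for Marco and Msr1. These describe groups that share arrays, days and experiments. Among the 4125 genes brighter than the median gene, the profile closest to Cd14 was that of Ifi30 (r = 0.92), a lysosomal thiol reductase of antigen processing, followed by Rnf19b, Ccl9, H2-DMa and Psmb10. Closest to Msr1 were Hcls1 (r = 0.87), Capg, Ccl9, H2-Eb1 and Ctsb. Mrc1 was closest to Cd302 (r = 0.86), another C-type lectin receptor, then to Tgif1, Itgb2, D17H6S56E-5 and Gclc. Marco had no profile as close: Mrc1 led (r = 0.64), followed by Fto, Lipa, Wfdc21 and Pqlc3.

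Other genes of the same pathways gave the setting. Of 16 macrophage and monocyte markers, 5 rose in C57BL/6 mice at day 32, Aif1, C1qa, C1qb, C1qc and Ctss, with changes from 1.38 to 1.98, and the median of the list was 0.96 against -0.01 over all genes. Their score, the mean level of the list, lay between 8.13 and 8.92 in the exposed and 7.52 and 7.55 in the unexposed mice. At day 34, 9 of 16 rose (median 0.51 against -0.01), and the score of 7.96 to 8.62 lay above the 7.37 to 7.74 of unexposed mice. At day 41, 3 of 16 rose, with exposed scores of 7.79 to 8.40 and unexposed scores of 7.52 to 7.90. In CD40L-KO mice of day 32 exposed scores were 7.57 to 7.63 and unexposed scores 7.37 to 7.49, and 0 of 16 were called. In exposed C57BL/6 mice 11 of 16 were lower at day 75 than at day 32, where day and experiment cannot be told apart. The C57BL/6 mice exposed for 32 days, with the highest group means of Cd14 and Msr1, thus also had the highest mean macrophage score. Other immune cells moved in the same mice: the T cell score was 5.77 to 7.13 after 32 days of exposure and 5.07 in both unexposed mice, and the dendritic cell score 6.16 to 6.90 against 5.64 to 5.72. Of 10 T cell markers 1 rose at day 32, 5 at day 34 and 1 at day 41, and of 10 dendritic cell markers 2, 2 and 1. In CD40L-KO mice of day 32 limma called 0 of either list, and 0 had an unadjusted p under 0.05. The part of the number of these cells in the receptor levels was not tested.

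Of the alveolar macrophage markers 11 were measured. In CD40L-KO mice their score reached 7.43 to 7.74 after 35 days of exposure against 7.24 to 7.54 without, and 7.58 to 7.67 at day 75 against 7.24 to 7.49 in C57BL/6 mice of day 75. Besides Ctsk, Chil3, a chitinase-like protein of alveolar macrophages, was the other marker called higher at day 75 than in unexposed CD40L-KO mice of day 32 (0.73, SE 0.21, adjusted p 0.0424). In 2 of those 3 unexposed mice the squamous score was over 7, and no experiment is given for day 75. The part of these in the change of Chil3 was not tested. Chil3 rose in C57BL/6 mice at day 32 (1.38, SE 0.26, adjusted p 0.0323), day 34 (1.46, SE 0.17, adjusted p 7.91e-07) and day 41 (1.11, SE 0.17, adjusted p 0.000546), where Marco was not called. Neutrophils, which also carry Cd14, had 0 of 13 markers called at day 32 by limma and 1 at day 34, Ltf. At day 32 the neutrophil score of C57BL/6 mice overlapped between exposed (5.72 to 6.06) and unexposed mice (5.82 to 6.18). The part of neutrophils in the level of Cd14 was not tested.

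Of 11 other scavenger receptors, Cd68, a lysosomal scavenger receptor of macrophages, rose with exposure in C57BL/6 mice at day 32 (1.15, SE 0.21, adjusted p 0.0293) and day 34 (0.82, SE 0.13, adjusted p 0.000105). Olr1, which binds oxidised lipoprotein, rose at day 32 (1.13, SE 0.23, adjusted p 0.0383). Cd36, a class B scavenger receptor also found on endothelium, fell by 1.11 (SE 0.19, adjusted p 0.0237) at day 32 and by 0.63 (SE 0.14, adjusted p 0.00505) at day 34. The mean level of skeletal muscle markers was 8.00, 7.87, 6.92, 7.55 and 4.34 in the unexposed mice of day 34. It ran from 4.48 to 7.76 in the exposed mice of that day. At day 32 it was 5.96 and 4.63 in unexposed and 4.74, 4.77 and 4.43 in exposed C57BL/6 mice. The part of muscle, squamous tissue and RNA quality in the changes of these receptors was not tested. Of 15 other Toll-like receptor and adaptor genes, 0 were called at day 32 by limma. At day 34 Ly86, a partner of the receptor Cd180, rose by 0.86 (SE 0.21, adjusted p 0.00966) and Nfkb2, an NF-kB subunit, by 0.58 (SE 0.10, adjusted p 0.000217). Tlr6, which pairs with Tlr2, changed by 0.90 (SE 0.26, adjusted p 0.107) at day 32 and by 0.27 (SE 0.13, adjusted p 0.203) at day 34. Tlr6 was chosen after its values were seen, because Tlr2 itself was not measured. Of 14 lectins and other recognition receptors, 2 rose at day 32 (Clec4a2 and Itgam) and 3 at day 34 (Itgb2, Lgals3 and Ly75).

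Of 21 genes that Toll-like receptors are known to induce, 3 rose at day 32, the chemokines Ccl2 (3.76, SE 0.56), Cxcl10 (3.23, SE 0.57) and Cxcl1 (3.04, SE 0.42), with adjusted p from 0.0104 to 0.0252. At day 34, 5 rose, these 3 with Acod1 and Nfkbia, and at day 41 Ccl2 alone (0.94, SE 0.22, adjusted p 0.046). Between exposed mice of day 32, Ccl2 was lower in CD40L-KO than in C57BL/6 mice by -4.19 (SE 0.50, adjusted p 0.00357). At day 75, 12 of the 21 were lower in C57BL/6 mice than at day 32, where day and experiment cannot be told apart. In CD40L-KO mice of day 75, with the highest Marco, 2 were higher than in the unexposed mice of day 32, Ptgs2 (1.37, SE 0.26, adjusted p 0.00586) and Cxcl1 (1.42, SE 0.37, adjusted p 0.0305).

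Single mice showed how far the receptors varied together. Among the 10 exposed C57BL/6 mice of day 34, Msr1 and Cd14 had r = 0.838 (permutation p 0.00155, adjusted over 44 relations 0.0227) and rho = 0.77 (permutation p 0.013, adjusted p 0.256), and r was 0.866 without the 2 mice farthest from the median of Msr1. The relation passed by r and not by rho after adjustment. Among the 10 mice of day 41, r was 0.232. The macrophage score and Msr1 had r = 0.637 (permutation p 0.0509, adjusted p 0.24) at day 34. At day 41 they had r = 0.839 (permutation p 0.00131, adjusted p 0.0227), with rho = 0.685 (permutation p 0.0349, adjusted p 0.256) and r = 0.674 without the 2 mice farthest from the median score. Neither difference between the days was tested. For Mrc1 at day 34, 3 mice (7.05, 6.92 and 6.87) stood above the other 7, which reached at most 6.55, so no pooled r is given. The same 3 mice had the 3 highest macrophage scores of the group. At day 41 the macrophage score and Mrc1 had r = -0.44 (permutation p 0.204, adjusted p 0.564) and rho = -0.467. The difference from day 34 was not tested. The exposed mice had been kept in 2 cages, which the labels do not assign to single mice.

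**Figure D4:**
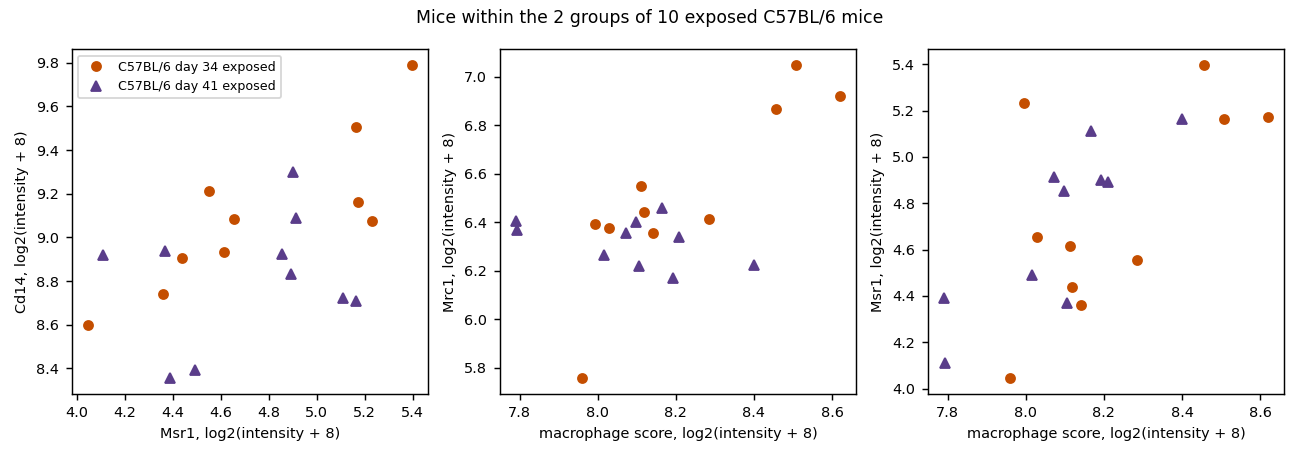
Msr1 against Cd14 (left) and the macrophage score against Mrc1 (middle) and Msr1 (right), log2(intensity + 8), in single exposed C57BL/6 mice of day 34 (circles, n = 10) and day 41 (triangles, n = 10). For Msr1 and Cd14 r was 0.838 at day 34 and 0.232 at day 41, and for the macrophage score and Msr1 it was 0.637 and 0.839.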

How the data were processed

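Lung RNA was labelled with biotin and hybridised to Affymetrix arrays, per the labels' protocols. The authors deposited 1 linear intensity per probe set and array, 12487 probe sets on 95 arrays with 1 missing value, and how probes were summarised is a step not given in the sources used. With the lowest and highest 2% of values trimmed, mean intensities per array spanned only 100.05 to 100.07, which shows a common scaling of the deposited values.

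Values were used as log2(intensity + 8). By the platform annotation 10855 probe sets have 1 gene, 396 have several and 1236 have none, and 10839 named probe sets were in the RefSeq gene table. The brightest probe set stood for each of 8251 genes. Groups were compared in limma 3.58.1 (lmFit and eBayes, R version 4.3.3), fitted on the groups of 1 experiment, with 2 exceptions. Both day 35 comparisons, that within CD40L-KO mice included, were fitted on experiment 4 together with the day 34 groups of experiment 2. The groups of days 32, 39 and 75 were fitted together for the comparisons of days 39 and 75. Benjamini-Hochberg adjustment ran over all genes, with a threshold of 0.05. Nothing says that mice of a group were independent of cage, so p-values measure the spread between these mice. Python 3.11.15, pandas 2.3.3, numpy 2.4.6, scipy 1.17.1 and matplotlib 3.10.9 were used. The fits were tested on simulated data.

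The members, gene lists, comparisons and alternatives were chosen with earlier results of these data known. Named were the members, the 5 genes of most similar profile per member, up to 6 called genes per list (with none called, the 2 of lowest p) and Cd40lg, Xist and Eif2s3y; other names are said to be chosen after their values were seen. Same-numbered mice of compared groups were not treated as pairs in the main fits. In no comparison did the correlation of their deviations exceed 0.1 in every pair. In C57BL/6 mice exposed against unexposed it did so in 1 of 4 pairs at day 7, 3 of 6 at day 14, 2 of 5 at day 21 and 1 of 5 at day 34. No mouse was left out of the main fits.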

Additional observations from a re-analysis of the deposited data

Results flagged for a closer look

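The dimmer Msr1 probe set had 1 mouse far from the others of its group in 3 groups: 3.57 in an exposed C57BL/6 mouse of day 14 (replicate 6), where the others reached down to 3.96, 4.12 in an unexposed C57BL/6 mouse of day 14 (replicate 3), where the others reached up to 3.81, and 3.52 in an exposed C57BL/6 mouse of day 41 (replicate 9), where the others reached down to 4.14. In 60 groups of a probe set that were looked at in this way, chance alone gives about 3 such mice, 1 in 20. The exposed mice of day 41 with Marco at 3.55 and 3.51 were not singled out by this rule, because they lie together.

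The measured change of Cd14 with exposure at day 32 ran in opposite directions in the strains. Every exposed C57BL/6 mouse lay above the unexposed mean of its strain, and every exposed CD40L-KO mouse below that of its own. The change in CD40L-KO mice was itself not called (limma, adjusted p 0.367). The difference of -1.53 was tested and missed the threshold over all genes (limma, adjusted p 0.097). In the alternatives it was called without dim genes and in 1 fit of all 95 arrays. Without arrays over a squamous score of 5.5, which leaves out 2 of 3 unexposed CD40L-KO mice, it was -1.63.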

How the results depend on the processing

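Of 806 changes of single receptors under alternatives other than leaving out 1 mouse, 767 kept their direction or stayed uncalled, 33 lost and 6 gained a call, 0 called changes turned their sign, and 39 uncalled ones did. Of 856 changes without 1 mouse, 834 stayed, 16 lost and 6 gained a call. Counts of called receptors were within 1.5 times the main count in 182 of 211 alternatives. For C57BL/6 mice at day 32, against 1 in the main fit, 0 were called with an offset of 2, with the replicate block, with the Gapdh ratio as a covariate and without arrays over a squamous score of 7 or of 5.5, and 2 in 1 fit of all 95 arrays. For the strain difference of that effect, against 0, 1 was called without dim genes and 1 in the fit of all arrays, and for exposed mice of both strains, against 1, 0 without arrays over 5.5. At day 34, against 3, 1 was called with the replicate block, the squamous score or the Gapdh ratio as a covariate, and 0 without arrays over 7 or over 5.5. For CD40L-KO mice at day 35, against 0, 1 was called in the fit of all arrays, and for their effect against that of day 34, 1 with an offset of 32 and 1 in the fit of all arrays. For the strains at day 75, against 1, 0 were called without dim genes and 0 in the fit of all arrays. For CD40L-KO mice of day 75 against day 39, against 2, 1 was called without dim genes, 1 in the fit of all arrays and 0 with the Gapdh ratio. Against unexposed mice of day 32, also 2, 1 was called without dim genes, 1 in the fit of all arrays, and 0 with the squamous score as a covariate or without arrays over 7 or over 5.5. For C57BL/6 mice of day 75 against day 32, against 2, 1 was called without dim genes and 1 with the Gapdh ratio. Leaving out 1 mouse gave 0 to 2 calls for C57BL/6 at day 32 (0 without exposed replicate 1 or 3 or unexposed replicate 1 or 2, 2 without exposed replicate 2), 0 to 1 for the strain difference of the effect, 1 to 3 at day 34 (exposed replicate 4 or unexposed replicate 1), 0 to 1 for day 35 against day 34, 1 to 2 for CD40L-KO day 75 against day 39 (either day 39 mouse) and 1 to 2 for C57BL/6 day 75 against day 32. The replicate block left the count unchanged in every other comparison. Whether same numbers mark pairs of mice is not given. The filter on dim genes left out Marco and Msr1 in most fits, the construction of that alternative being the cause of their lost calls; for the others the cause was not tested. Arrays over a squamous score of 5.5 were chosen after seeing the data, because the score of 7 divides the high arrays (7.00 and 6.95). Where leaving out leaves 1 array in a group, it is assumed to vary like the others. Marco and Msr1 lie near the bottom of the scale, which limits their precision.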

Other observations

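The 2 exposed C57BL/6 mice of day 41 with Marco at 3.55 and 3.51 had Mrc1 at 6.46 and 6.22, Msr1 at 5.11 and 5.16 and Cd14 at 8.72 and 8.71, inside the range of the other 8 mice for Cd14, above them for Msr1, and at and below the highest level of the group for Mrc1. Among the unexposed CD40L-KO mice labelled day 14, Marco was likewise split, with 3.66 and 3.60 in 2 mice and 5.07 to 5.61 in the other 3.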
